A study of Mus musculus with 120 samples.

Results

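Sarcolipin (Sln), phospholamban (Pln), S100a1 and the ryanodine receptors Ryr1 and Ryr2 were followed in soleus muscle and heart of mice with 4 mitochondrial genotypes. They are 5 of the 53656 genes in each deposited table. The set was picked because Sln was much lower, and S100a1 much higher, in soleus of ANT1 mice than in the other strains. That difference is therefore described here without a test, for these genes and for the other genes named in the same comparison. Only the share of all genes called in it is given. Sln, Pln, S100a1 and Ryr1 passed the filter on low counts in soleus, and all 5 passed it in heart.

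Striated muscle contracts when calcium leaves the sarcoplasmic reticulum through a ryanodine receptor, and it relaxes when the SERCA pump returns that calcium. Ryr1 is the channel of skeletal muscle and Ryr2 that of heart, while Atp2a1 encodes the pump of fast fibres and Atp2a2 that of slow fibres and heart. Sarcolipin and phospholamban are short membrane peptides that bind the pump and restrain it. In rodents sarcolipin is known for the atria and for slow or developing skeletal muscle, and phospholamban for the ventricle and slow fibres. S100a1 is a small calcium-binding protein of heart and slow muscle that binds both the pump and the ryanodine receptor.

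ANT1 mice lack the adenine nucleotide translocator of heart and muscle (Slc25a4-/-). The other strains each carry a missense mutation of mitochondrial DNA (mtDNA): ND5 at position 12352 (ND5S204F), ND6 at position 13997 (ND6P25L) and CO1 at position 6589 (CO1V421A). All are on the C57BL/6Eij background with Nnt+/+. From 16 weeks of age the mice of each strain were either handled only (non-exercised) or trained over 8 weeks, with 45 min of running on each 2nd day at 50% of their maximum. Tissues date from 6 days after training ended. Each strain, arm and tissue had 6 libraries, each of another mouse within a tissue, 96 in all. The labels place ND5 mouse B80 in the exercised arm for soleus and in the non-exercised arm for heart, and its heart library stands apart. Values without B80 are given for part of the results it enters. The control strain is not analysed here, so every strain difference is one between mutants, and ND5, ND6 and CO1 are called the mtDNA strains below. In 24 ANT1 libraries Slc25a4 stood at 1.89 to 22.1 CPM (counts scaled to a common library size), against 471 to 4021 CPM in the mtDNA strains. Soleus libraries held about 10205700 to 20748900 counts and heart libraries 19653300 to 26512300. Transcripts encoded by mtDNA took 33.99 to 47.6% of counts in ANT1 soleus and 12.9 to 24.8% in soleus of the mtDNA strains.

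The coding sequences of sarcolipin and phospholamban are shown because the levels of these related peptides stood in opposite directions. Both are read 5′ to 3′ from the GENCODE transcripts of GRCm38. Capitals mark the in-frame window of 15 bases in which they are most alike, with 13 identical bases, at bases 22 to 36 of Sln and 91 to 105 of Pln.
Sln: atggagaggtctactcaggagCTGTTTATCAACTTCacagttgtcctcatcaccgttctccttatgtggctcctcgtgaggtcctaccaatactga
Pln: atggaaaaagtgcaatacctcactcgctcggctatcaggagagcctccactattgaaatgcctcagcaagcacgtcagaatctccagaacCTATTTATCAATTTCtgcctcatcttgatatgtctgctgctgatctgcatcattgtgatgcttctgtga
These frames encode 31 and 52 residues, against 94 for S100a1, 5061 for Ryr1 and 4966 for Ryr2. In mm10, Sln lies on chromosome 9 (53850164 to 53854560, plus strand) and Pln on chromosome 10 (53337667 to 53345987, plus strand). S100a1 lies on chromosome 3 (90511034 to 90514392, minus strand), Ryr1 on chromosome 7 (29003344 to 29125179, minus strand) and Ryr2 on chromosome 13 (11553102 to 12106945, minus strand). Values are for whole genes and do not separate exons or isoforms.

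In ANT1 soleus sarcolipin was low and phospholamban high. Sln in non-exercised ANT1 mice was 3.19 CPM at the lowest, 6.47 at the median and 8.99 at the highest of 6 libraries, and in exercised ANT1 mice 5.05, 6.32 and 9.60. In non-exercised mtDNA strains, again as lowest, median and highest, it was 82.4, 187 and 404 CPM in ND5, 43.2, 73.1 and 143 in ND6, and 71.4, 106 and 184 in CO1. In the exercised ones it was 64.4, 119 and 192 CPM in ND5, 40.9, 117 and 322 in ND6, and 36.4, 87.9 and 211 in CO1. Every ANT1 library therefore lay below every library of the mtDNA strains, and ANT1 had the lowest level among the strains in both arms. The fitted log2 difference of ANT1 from the mean of the mtDNA strains was -4.36 ± 0.44 (SE, 6 against 18 libraries) without training and -4.15 ± 0.43 with it. The ANT1 median was 0.0612 and 0.0584 times the median of the mtDNA libraries.

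Pln stood the other way. In ANT1 its lowest, median and highest levels were 64.5, 87.5 and 119 CPM without training and 77.9, 99.1 and 125 with it. In the non-exercised mtDNA strains they were 7.99, 9.58 and 20.3 CPM in ND5, 11.2, 18.6 and 28.7 in ND6, and 5.24, 13.4 and 16.6 in CO1. In the exercised ones they were 10.2, 18.9 and 19.8 CPM in ND5, 6.79, 10.5 and 19.96 in ND6, and 6.58, 13.8 and 38.6 in CO1. The groups did not overlap, and the ANT1 median was 6.94 and 7.31 times that of the mtDNA libraries (log2 differences 2.67 ± 0.21 and 2.75 ± 0.21).

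S100a1 was also above all libraries of the mtDNA strains, with a narrow spread. ANT1 libraries ran from 403 through a median of 458 to 536 CPM without training, and from 369 through 430 to 565 with it. Non-exercised mtDNA strains gave medians of 119 CPM in ND5, 154 in ND6 and 132 in CO1, with single libraries from 104 to 168. Exercised ones gave 141, 158 and 150 CPM, with single libraries from 117 to 188. The log2 differences were 1.78 ± 0.08 and 1.59 ± 0.08, so ANT1 stood at 3.46 and 2.80 times the median of the mtDNA libraries. On the deposited FPKM scale the gap was smaller. Median FPKM was 771 in non-exercised ANT1 against 348 to 396 in the mtDNA strains, and 787 against 382 to 412 with training.

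In CPM the ryanodine receptors did not share this split. Ryr1 stood at 1428 to 2412 CPM in non-exercised and 1537 to 2447 CPM in exercised ANT1 soleus, against 1279 to 2613 CPM in the 36 libraries of the mtDNA strains, with log2 differences of 0.03 ± 0.12 and -0.02 ± 0.12. On the deposited FPKM scale Ryr1 was lower in ANT1, with medians of 117 without training and 120 with it. Medians of the mtDNA strains were 161 to 176 FPKM without training and 146 to 174 with it. The place of Ryr1 therefore depends on the scale. Ryr2 was at 0 to 0.415 CPM in every soleus library, 0 to 8 counts, so no fold is given for it. Of all 13935 genes tested in this comparison, 47.7% passed an adjusted p of 0.05 without training and 43.5% with it. The share whose ANT1 libraries all lay above those of the mtDNA strains was 6.62% and 5.19% in the non-exercised and exercised arms, and all below was 3.34% and 3.36%. Nothing is read from the members against these shares, since the set was picked on this comparison.

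**Figure D1:**
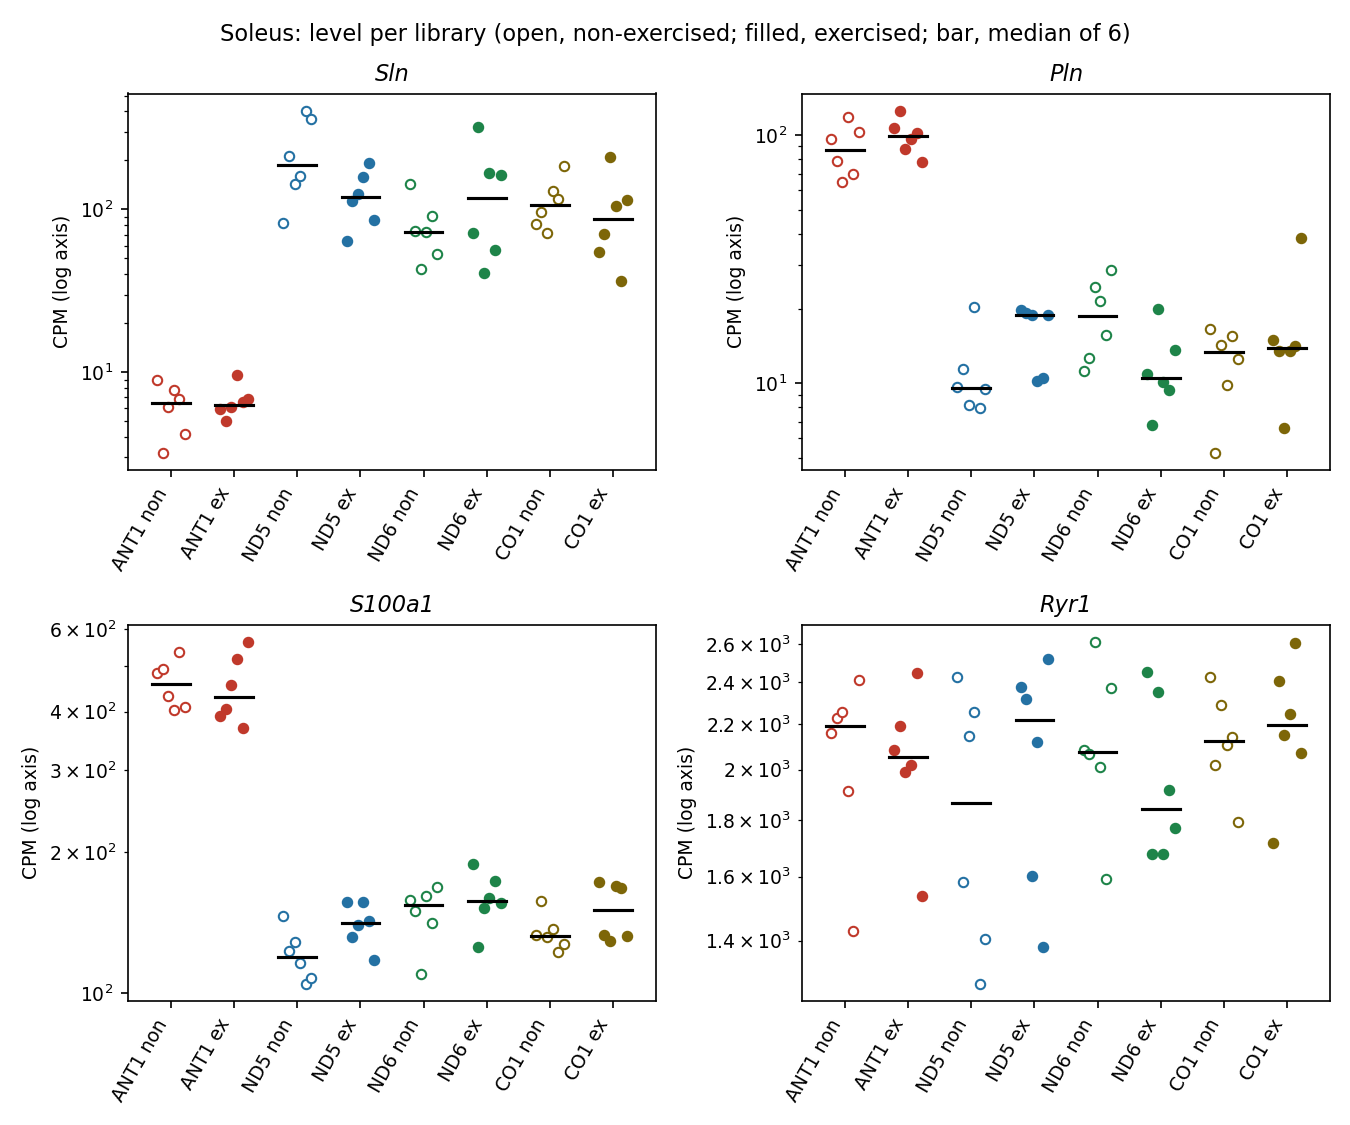
Levels of Sln, Pln, S100a1 and Ryr1 in soleus in CPM (log axis) by strain and arm, a point per library (open non-exercised, filled exercised) and a bar at the median of 6. ANT1 lies apart from the mtDNA strains for Sln (below), Pln and S100a1 (above), and within their range for Ryr1.

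Set side by side per transcript length (deposited FPKM, ratios within a library), phospholamban outnumbered sarcolipin in ANT1 and the reverse held in the mtDNA strains. The ratio of Pln to Sln was 6.79 to 20.01 in the 12 ANT1 libraries (median 10.8) and 0.0129 to 0.370 in the 36 others (median 0.0959). The sum of both peptides' FPKM differed less: per 100 FPKM of Atp2a1 plus Atp2a2 it was 1.16 to 2.59 in ANT1 (median 1.84) and 0.952 to 13.1 in the mtDNA strains (median 2.79), which overlap. Sln alone was 0.0709 to 0.230 per 100 of the pumps in ANT1 and 0.758 to 12.9 in the others. For Pln those ratios were 1.03 to 2.38 and 0.0865 to 0.524. The pumps themselves overlapped, Atp2a1 at 5534 to 8891 CPM in ANT1 and 4243 to 9855 in the mtDNA strains, and Atp2a2 at 2740 to 8052 and 4682 to 8286.

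**Figure D2:**
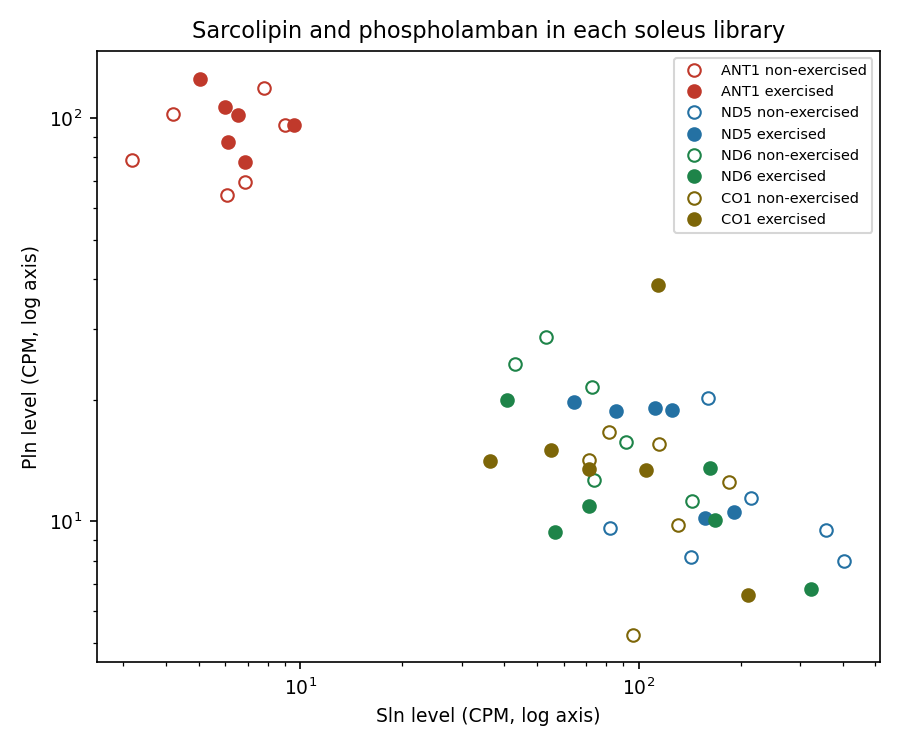
Pln against Sln in each of 48 soleus libraries, both in CPM on log axes. The 12 ANT1 libraries (Sln up to 9.60, Pln from 64.5) and the 36 libraries of the mtDNA strains (Sln from 36.4, Pln up to 38.6) occupy opposite corners.

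Sums of cell type markers were set beside these levels in soleus. With both arms together, ANT1 and the mtDNA strains overlapped in each sum given here. The summed CPM of fast fibre markers (8 genes, among them Myh4 and Actn3) was 18821 to 35360 in ANT1 and 22514 to 41492 in the mtDNA strains. The slow fibre sum (6 genes, among them Myh7 and Tnni1) was 16626 to 25634 and 15622 to 28896. Markers of embryonic or regenerating fibres (Myh3, Myh8 and Chrng) summed to 16.7 to 62.4 CPM in ANT1 and 21.4 to 2242 in the mtDNA strains. The 14 libraries of the mtDNA strains at or below that ANT1 maximum, picked after their values were seen, had Sln at 36.4 to 125 CPM, Pln at 9.43 to 28.7 and S100a1 at 110 to 173. Tendon markers (Tnmd, Scx and Mkx) summed to 2.57 to 9.07 CPM in ANT1 and 6.46 to 41.0 in the others, and macrophage markers (Adgre1, Cd68 and Csf1r) to 7.02 to 14.8 and 6.16 to 47.6. Without training the tendon sums did not overlap (2.57 to 6.96 CPM against 10.6 to 41.0). Red blood cell markers (4 genes) summed to 259 to 620 CPM in non-exercised ANT1 (median 456) against 161 to 429 in the mtDNA strains, and to 355 to 550 (median 461) against 120 to 582 with training. Adipocyte markers (Adipoq, Plin1 and Ucp1) summed to 2.48 to 16.5 and 1.04 to 18.7 CPM, smooth muscle markers to 42.02 to 91.2 and 34.5 to 78.7, and atrial markers to 63.04 to 80.4 and 39.7 to 274. The part of these cell types in the members' levels was not tested, and in bulk tissue fewer cells of a type and less RNA per cell cannot be told apart.

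Among the other genes of calcium release and return, most in ANT1 soleus stood below the mtDNA strains. Of the 18 listed genes of the ryanodine receptor complex 17 were tested, with 4 higher and 13 lower without training (median log2 difference -0.29, all genes -0.04) and 6 higher and 11 lower with it (median -0.18, all genes -0.02). Without training 1 of the 17 lay above and 1 below every library of the mtDNA strains, and with it 0 above and 2 below. Of all genes 6.62% lay above and 3.34% below without training, and 5.19% and 3.36% with it. The one above was Hrc, a calcium-binding protein of the reticulum (889 CPM or more in ANT1, log2 difference 0.41 ± 0.06). With training Tmem38b lay below, and Casq1, the calcium store protein of fast fibres, was below every library of the mtDNA strains in both arms (311 to 384 against 540 to 902 CPM, log2 differences -0.90 ± 0.08 and -0.95 ± 0.08). Casq2, the slow and cardiac store protein, differed by -0.31 ± 0.15 and 0.07 ± 0.14, and Ryr3 by -0.41 ± 0.29 and 0.38 ± 0.27. For the voltage sensor that opens Ryr1, 6 of 7 listed genes were tested, with 0 higher and 6 lower without training and 2 higher and 4 lower with it. The listed kinases and phosphatases, which include those that act on phospholamban, were higher in 2 and lower in 9 of 11, then 3 and 8, and calcium entry, export and uptake genes were higher in 1 and lower in 10 of 11 in both arms. Without training 1 voltage sensor gene, 2 kinases or phosphatases and 3 entry, export or uptake genes lay below every library of the mtDNA strains. With training these counts were 1, 1 and 3, and in both arms 0 genes of these lists lay above. The lowest log2 differences without training were -1.34, -0.77 and -1.30 in these lists. The pump list (3 genes) had a median of 0.06 and -0.04, and Mrln, which encodes the micropeptide myoregulin, differed by 0.06 ± 0.16 and 0.09 ± 0.15.

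Of 7 tested other S100 genes, 1 was higher and 6 lower in ANT1 soleus without training (median -0.57), and 2 and 5 with it (median -0.75). The one higher in both arms was S100a13, whose gene starts head to head with S100a1. It stood at 7.88 to 13.1 CPM in ANT1 and 4.84 to 15.1 in the mtDNA strains, overlapping (0.29 ± 0.14 and 0.32 ± 0.14). The 42 bases between both annotated genes (chr3:90514393-90514434, minus strand, RefSeq promoter table on GRCm38.p6) are shown in full in capitals because these neighbours share this stretch and differ in their levels. On that strand the first base shown adjoins S100a13 and the last adjoins S100a1. The label before the bases names the gene pair, not the reading direction.
S100a1 to S100a13: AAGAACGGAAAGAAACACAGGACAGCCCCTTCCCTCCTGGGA

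Within the mtDNA strains, which the choice of genes did not set against each other, Sln was the 1 member that edgeR called between a pair of strains in soleus. In non-exercised ND5 soleus it was 82.4, 142, 160, 214, 357 and 404 CPM in the 6 libraries, and in ND6 43.2, 53.04, 72.8, 73.5, 91.6 and 143. The lowest ND5 library and its next neighbour overlapped the highest of ND6. Sln was higher in ND5 by 1.51 ± 0.39 on the log2 scale (edgeR's quasi-likelihood test, Benjamini-Hochberg adjusted p = 0.00891), where 14.5% of all genes passed. Without ND5 mouse B70, the highest, the value was 1.25 (adjusted p = 0.0616). Over the 6 pairings of strains and arms, edgeR called 1 of 24 member tests (5 had an unadjusted p under 0.05) and DESeq2 3. In the other 5 pairings edgeR called 0 genes of any kind, with 286 to 3080 at an unadjusted p under 0.05, and DESeq2 1 to 410.

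In that ND5 to ND6 comparison the other members leaned the opposite way without passing in edgeR. Pln differed by -0.77 ± 0.29 (adjusted p = 0.0649, and 0.0435 by DESeq2), S100a1 by -0.30 ± 0.11 (adjusted p = 0.0544, and 0.0388 by DESeq2) and Ryr1 by -0.20 ± 0.15 (adjusted p = 0.378, interval -0.50 to 0.10). Of the 7 tested other S100 genes 5 rose and 0 fell in ND5 against ND6, led by S100a4 (1.64 ± 0.42), S100a11 (1.07 ± 0.26) and S100a6 (1.01 ± 0.25), where 9.97% of all genes rose and 4.51% fell. The macrophage sum was 18.7 to 47.6 CPM in these ND5 libraries (median 30.6) and 6.16 to 22.04 in those of ND6 (median 15.7), and its part in these differences was not tested. In the ryanodine receptor complex 1 of 17 rose (Fkbp1a, a binding protein of the channel, 0.32 ± 0.09) and 1 fell (Tmem38a, a channel for potassium ions of the reticulum, -0.29 ± 0.09). Of 11 kinases and phosphatases 2 rose (Camk2d 0.57 ± 0.15, Prkaca 0.28 ± 0.10) and 1 fell (Ppp1r1a, an inhibitor of protein phosphatase 1, -0.64 ± 0.19). Of 3 pumps 0 rose and Atp2a3 fell (-0.47 ± 0.16). The regenerating fibre sum was higher in the same ND5 libraries, 55.6 to 2242 CPM (median 618) against 40.3 to 164 in ND6 (median 61.998). Its part in the Sln difference was not tested.

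Across the 36 soleus libraries of the mtDNA strains Sln moved with that sum. Pearson's r of the log2 levels was 0.90 and Spearman's rho 0.88 (permutation p = 1e-05, the smallest that 100000 resamples give, adjusted over 10 relations 5e-05 for r and 0.0001 for rho). It was 0.86 without the 2 libraries farthest from the median Sln and 0.88 for deviations from the group means. In the 12 ANT1 libraries r was -0.31. The sum ran against Pln (r -0.53, permutation p = 0.00066, adjusted 0.00165, and rho -0.55, permutation p = 0.00056, adjusted 0.00187), S100a1 (r -0.49, permutation p = 0.00216, adjusted 0.00309, and rho -0.44, permutation p = 0.00797, adjusted 0.0114) and Ryr1 (r -0.62, permutation p = 9e-05, adjusted 0.0003, and rho -0.51, permutation p = 0.00149, adjusted 0.00298). Without the 2 libraries farthest from each member's median these were -0.66, -0.44 and -0.53, and within groups -0.45, -0.39 and -0.58. Pln ran against Sln (r -0.50, permutation p = 0.00203, adjusted 0.00309, and rho -0.52, permutation p = 0.00148, adjusted 0.00298). So did S100a1 (r -0.52, permutation p = 0.00137, adjusted 0.00274, and rho -0.50, permutation p = 0.00204, adjusted 0.0034) and Ryr1 (r -0.70, permutation p = 1e-05, adjusted 5e-05, and rho -0.65, permutation p = 6e-05, adjusted 0.0003). Without the 2 farthest libraries these were -0.45, -0.36 and -0.58, and within groups -0.43, -0.40 and -0.68. In ANT1 r of Sln was 0.08 with Pln, 0.21 with S100a1 and -0.34 with Ryr1. Pln rose with Ryr1 (r 0.36, permutation p = 0.0304, adjusted 0.0381, and rho 0.37, permutation p = 0.0249, adjusted 0.0312, with r 0.42 without the 2 farthest libraries). The relation of S100a1 with Ryr1 did not pass (r 0.23, permutation p = 0.177, adjusted 0.196, and rho 0.10, permutation p = 0.576, adjusted 0.64), nor did that of Pln with S100a1 (r 0.01, permutation p = 0.971, and rho 0.02, permutation p = 0.91). In the 12 ANT1 libraries r was -0.70 for S100a1 with Ryr1, -0.61 for Pln with S100a1 and 0.39 for Pln with Ryr1. There r with the regenerating fibre sum was -0.24 for Pln, -0.52 for S100a1 and 0.21 for Ryr1. These ANT1 values were not tested. The permutations ran over all 36 libraries without regard to strain or arm, so their p-values include differences between groups. All levels come from the same libraries and share their depth and scaling.

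The genes most like each member over those 36 libraries, given as a description among 10367 genes, differed between members. For Sln they were Carhsp1 (r 0.93), the uncoupling protein gene Ucp2 (0.92) and the elongation factor gene Eef1a1 (0.91). For S100a1 they were Pdhb of pyruvate dehydrogenase (0.89), Atp5f1 of ATP synthase (0.89) and Uqcrfs1 of complex III (0.87). For Pln, with lower values, they were Slc35b1 (0.77), Hist2h2aa1 (0.73) and Efcab6 (0.73). For Ryr1 they were Cmya5 (0.95), Mfn2 (0.94) and Zfp106 (0.94), and the most opposite was the ribosomal protein gene Rps16 (-0.90). The longest annotated transcripts of Ryr1, Cmya5, Zfp106 and Mfn2 have 15358, 11850, 9085 and 4341 bases.

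Training left no called change in any member. The non-exercised and exercised soleus libraries also entered the difference for which the set was picked. In soleus edgeR called 0 of 24 member tests (within each strain, and averaged over the mtDNA strains and over all 4) and DESeq2 0, with an unadjusted p under 0.05 in 6. Of all genes edgeR called 0 in each of these comparisons, with 268 to 2086 at an unadjusted p under 0.05, and DESeq2 0 to 51. Sln differed by -0.89 ± 0.38 in ND5 (adjusted p = 0.258) and by 0.78 ± 0.39 in ND6 (adjusted p = 0.954), and Pln by 0.53 ± 0.29 in ND5 (adjusted p = 0.392) and -0.70 ± 0.29 in ND6 (adjusted p = 0.954). Without B80 the ND5 values were -0.97 for Sln (adjusted p = 0.278) and 0.64 for Pln (adjusted p = 0.338). The ND5 minus ND6 difference between training effects was -1.67 ± 0.55 for Sln (adjusted p = 0.134) and 1.23 ± 0.41 for Pln (adjusted p = 0.144), where 0.108% of genes were called. S100a1 averaged 0.16 ± 0.06 over the mtDNA strains (adjusted p = 0.901) and -0.03 ± 0.11 in ANT1. In ANT1 the training differences of Sln (0.10, 95% interval -0.87 to 1.08), Pln (0.17, -0.38 to 0.71) and Ryr1 (-0.01, -0.31 to 0.29) leave room for changes of these sizes. The training effect of ANT1 minus that of the mtDNA strains was called by neither tool for any of 4 members in soleus or 5 in heart (unadjusted p under 0.05 for 397 and 238 genes overall).

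Among exercised soleus samples the labels set 3 responders against 3 non-responders in each strain. No member was called (0 of 4 by edgeR and by DESeq2, 1 with an unadjusted p under 0.05, and 622 such genes overall). The log2 difference of responders from non-responders was 0.19 ± 0.08 for S100a1 (adjusted p = 0.954), -0.18 ± 0.31 for Sln, -0.19 ± 0.21 for Pln and 0.01 ± 0.10 for Ryr1.

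In heart, which the choice of genes did not use, S100a1 was again highest in ANT1, with overlap. Of the 12 ANT1 hearts 3 carry a mouse code that also occurs in soleus. Lowest, median and highest were 266, 465.6 and 647 CPM in non-exercised and 225, 458 and 620 CPM in exercised ANT1 hearts. In the mtDNA strains single hearts ran from 105 to 419 CPM, with medians of 301 in ND5, 334 in ND6 and 365 in CO1 without training and 264, 256 and 370 with it. The upper ANT1 hearts, 8 of 12, lay above all 36 others. No member separated fully in either arm, where 0.102% and 0.0827% of all genes had every ANT1 heart above, and 0.0763% and 0.127% every one below, those of the mtDNA strains. S100a1 did not pass in either arm: 0.57 ± 0.20 on the log2 scale without training (95% interval 0.17 to 0.97, adjusted p = 0.187) and 0.58 ± 0.20 with it (0.18 to 0.98, adjusted p = 0.0778). Over all genes 0.916% and 4.78% were called in these comparisons, and of 10 member tests edgeR called 1, DESeq2 1, and 3 had an unadjusted p under 0.05.

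The heart libraries differed in atrial markers, whose part in the levels above was not tested beyond the values given here. Sln was above 10 CPM in 26 of 48 hearts (26.1 to 1317 CPM) and at most 2.84 CPM in the other 22, and the same 26 hearts were those with Myl7, the atrial myosin light chain, above 10 CPM. These were 3 of 6 in each ANT1 arm, 4 of 6 in each ND5 arm, 4 and 6 of 6 in non-exercised and exercised ND6, and 1 of 6 in each CO1 arm. Splitting the hearts by Myl7 was not among the planned comparisons and pools both arms. Of the 16 hearts of the mtDNA strains with Myl7 at most 10 CPM, most were CO1 and none was exercised ND6. In the 22 hearts with Myl7 at most 10 CPM, S100a1 was 450, 558 and 647 CPM (lowest, median, highest of 6) in ANT1 and 329, 370 and 419 in the mtDNA strains (16 hearts), with no overlap. Among those hearts 1.61% of all genes lay without overlap above the mtDNA strains. In the 26 hearts with more Myl7 it was 225, 312 and 465 CPM in ANT1 (6 hearts) and 105, 240 and 355 in the mtDNA strains (20 hearts). With the mean level of atrial markers as a covariate, edgeR gave 0.67 without training (adjusted p = 0.000692) and 0.53 with it (adjusted p = 0.00559). That covariate moved the calls over all 15723 genes from 144 to 1125 and from 751 to 1525. With both arms together, an alternative chosen after seeing the data, the value was 0.58 (adjusted p = 0.00463) among 1977 genes called. S100a13 did not pass in heart (0.07 ± 0.13 and 0.21 ± 0.13). In hearts with Myl7 at most 10 CPM it was 15.5, 19.9 and 22.02 CPM (lowest, median, highest) in ANT1 and 11.9, 14.3 and 16.4 in the mtDNA strains, and in the others 16.4, 18.5 and 21.6 against 14.4, 18.6 and 33.9.

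**Figure D3:**
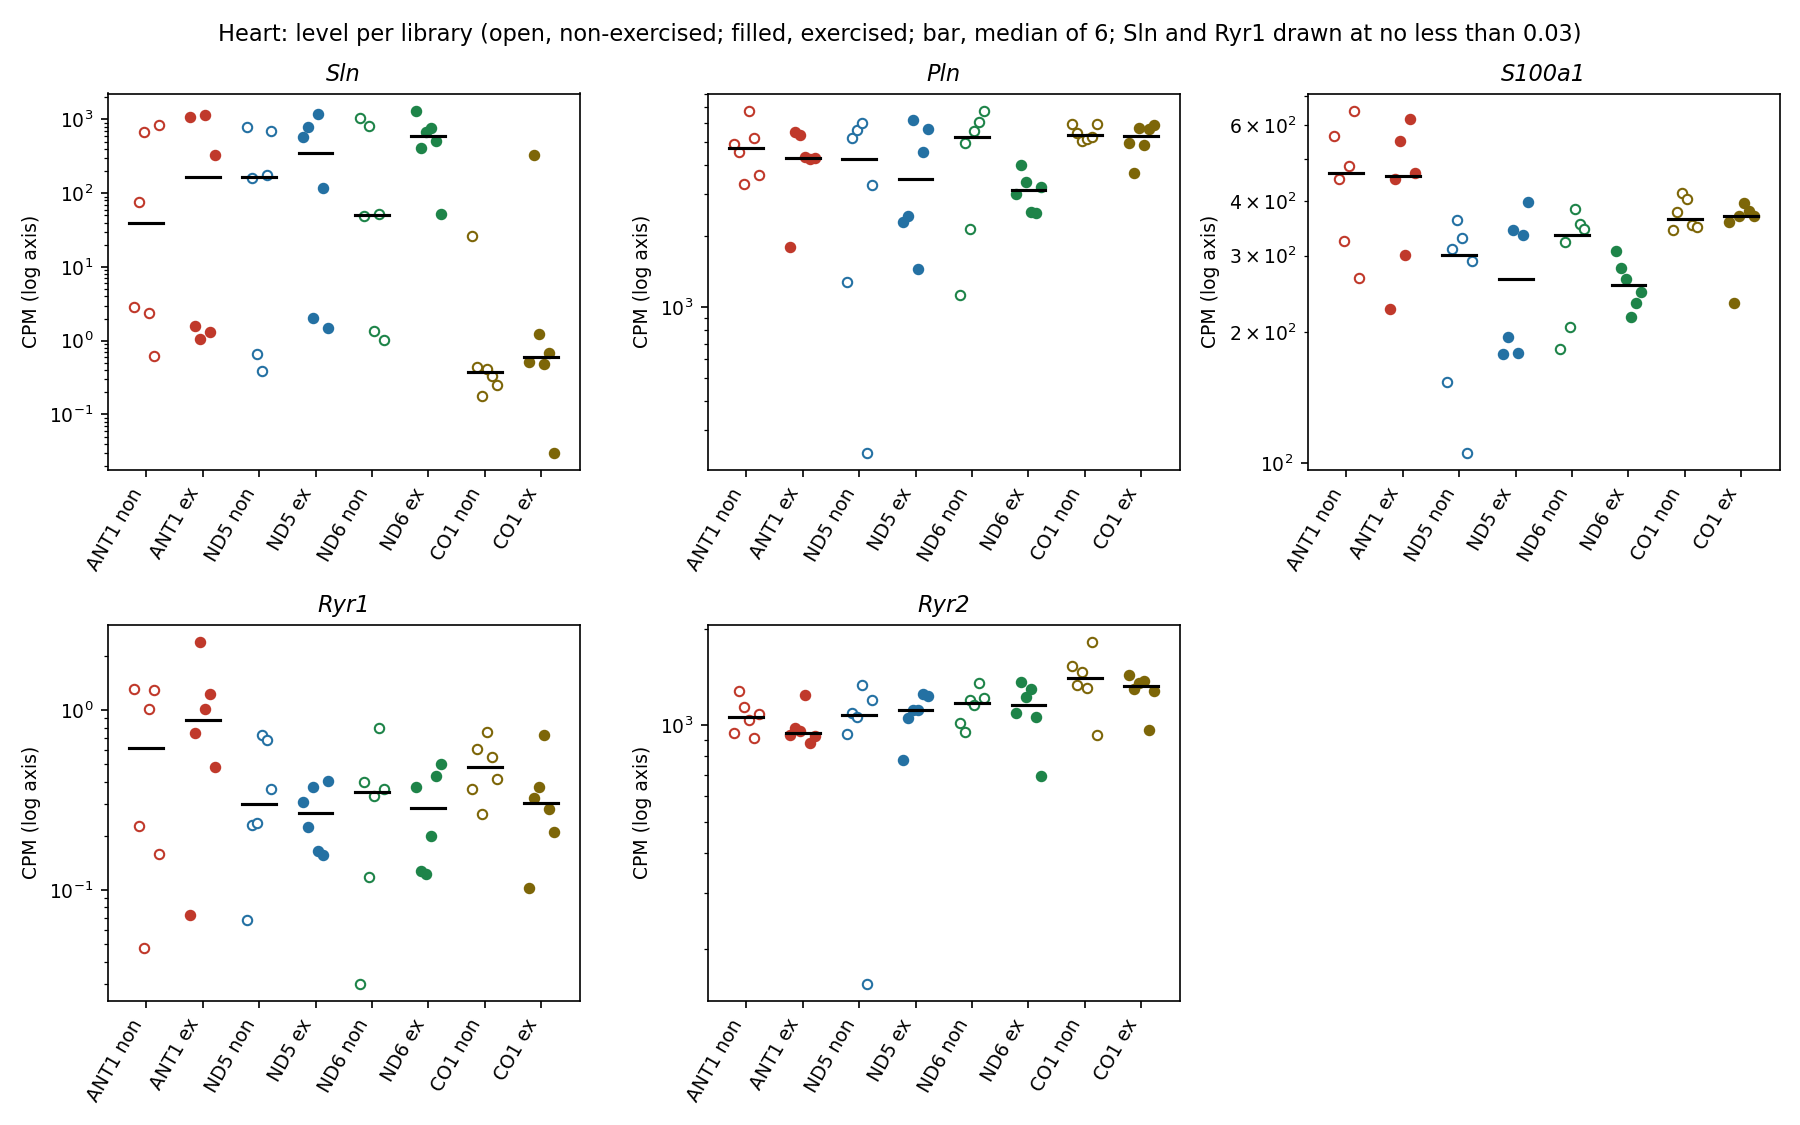
Levels of the 5 genes in heart in CPM (log axis) by strain and arm, a point per library (open non-exercised, filled exercised) and a bar at the median of 6; Sln and Ryr1 are drawn at no less than 0.03 CPM. S100a1 reaches 647 CPM in ANT1 and 419 in the mtDNA strains, while Sln spans hearts at most at 2.84 and hearts from 26.1 CPM in every strain.

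**Figure D4:**
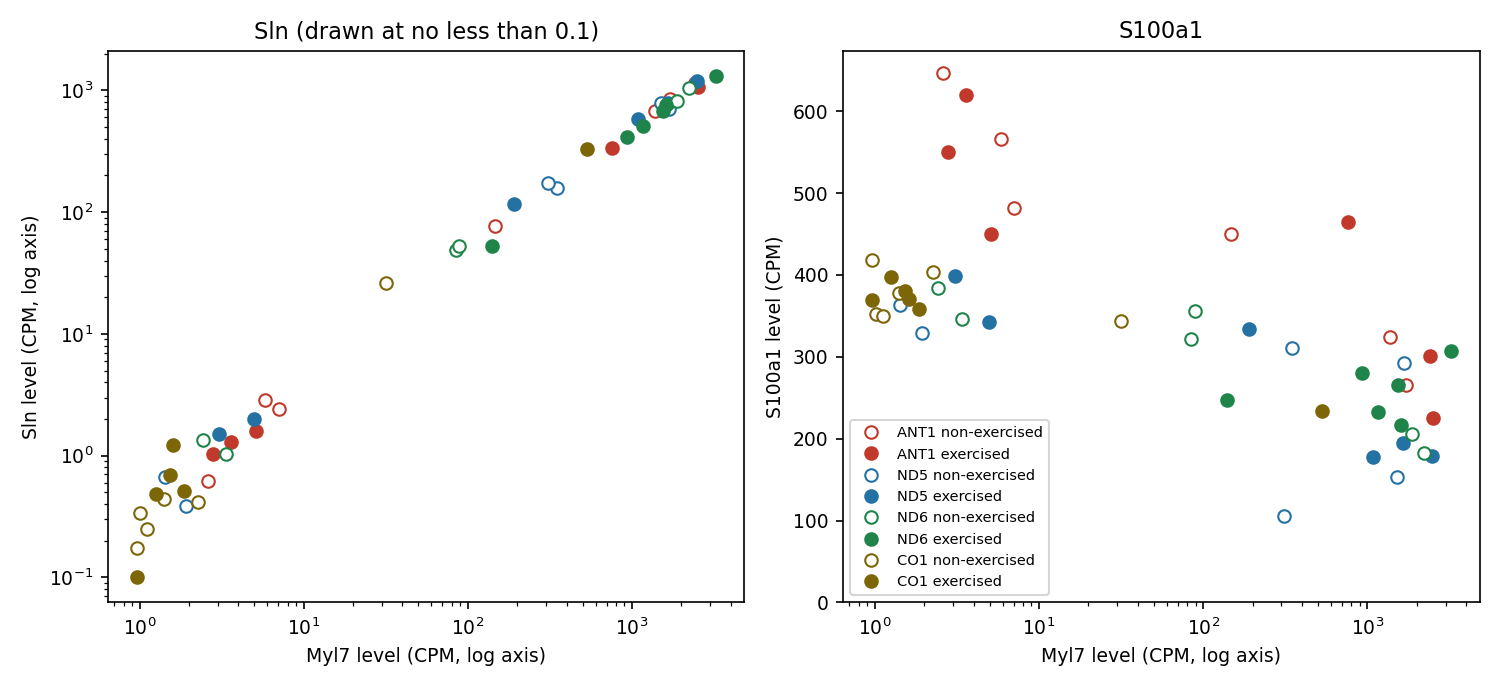
Sln and S100a1 against Myl7 in each of 48 hearts, in CPM, with Sln drawn at no less than 0.1 CPM. Axes are log for Myl7 and Sln and linear for S100a1. Sln follows Myl7, and S100a1 of ANT1 lies above that of the mtDNA strains among hearts with Myl7 at most 10 CPM (450 to 647 against 329 to 419).

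Phospholamban and Ryr2, the abundant heart members, did not differ beyond their spread between ANT1 and the mtDNA strains. Pln stood at 3309 to 6750 CPM in non-exercised (median 4705) and 1799 to 5506 in exercised ANT1 hearts (median 4290), against 241 to 6775 CPM in the mtDNA strains. Its differences were 0.09 ± 0.33 (95% interval -0.58 to 0.76) and 0.12 ± 0.33 (-0.55 to 0.79). Ryr2 stood at 881 to 1281 CPM in ANT1 and 156 to 1821 in the mtDNA strains, with -0.12 ± 0.19 and -0.24 ± 0.19. In hearts with Myl7 at most 10 CPM, Ryr2 was 881, 951 and 1036 CPM (lowest, median, highest) in ANT1 and 933, 1290 and 1821 in the mtDNA strains, and Pln 4234, 5248 and 6750 against 4840, 5641 and 6775. For both genes these ranges overlapped. Sln gave 1.80 ± 1.33 and 0.76 ± 1.38, and 0.97 to 3.07 and 0.17 to 2.96 with single hearts left out (lowest without A80 and A71, highest without E42 and E50), never called. Per 100 FPKM of the pumps, Pln was 32.2 to 115 in ANT1 hearts (median 75.95) and 20.7 to 101 in the others (median 72.7). The lowest Pln, Ryr2 and S100a1 values were all from the heart of ND5 mouse B80, which had 10.3 CPM of the ventricular light chain Myl2 and a smooth muscle sum of 7129 CPM, against 32.7 to 1206 in the other 47 hearts. Without it the non-exercised differences were 0.50 for S100a1, -0.01 for Pln and -0.20 for Ryr2, none called.

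Ryr1, near the limit of detection in heart, passed in exercised mice. It stood at 0.0727 to 2.41 CPM in exercised ANT1 hearts (2 to 44 counts, median 0.879 CPM) and at 0.103 to 0.727 CPM in exercised mtDNA strains, which overlap. The log2 difference was 1.70 ± 0.47 (edgeR adjusted p = 0.0286), and 1.21 without A69 (adjusted p = 0.238) or 1.63 without A73 (adjusted p = 0.0987). In non-exercised mice it was 0.73 ± 0.50 (adjusted p = 0.595). Among hearts with Myl7 at most 10 CPM, Ryr1 ran from 0.745 to 2.41 CPM in ANT1 and from 0.103 to 0.755 in the mtDNA strains. Of the listed calcium genes, edgeR called Casq1 (-1.75 ± 0.43, adjusted p = 0.0138) and the protein phosphatase 1 gene Ppp1ca (0.26, adjusted p = 0.0483) in exercised hearts and none in non-exercised ones. Their lists held 18 and 11 tested genes, and the lists without a call 3, 6, 11 and 9. Over all genes 4.78% were called in exercised hearts. Casq1 was low in heart, at 0.274 to 19.3 CPM. In the mtDNA strains its median was 5.91 CPM in hearts with Myl7 above 10 CPM and 3.12 in the others.

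Pairs of mtDNA strains and training gave no called member in heart by edgeR. Of all genes 11.2% were called for ND5 minus CO1 without training, 0.566% for ND6 minus CO1 with it, and 0 in the other 4 pairs (557 to 2164 genes at an unadjusted p under 0.05, and DESeq2 0 to 96). Of 30 member tests of pairs 0 were called, 4 had an unadjusted p under 0.05 and the lowest adjusted p was 0.0624. DESeq2 called 2, both Sln without training, ND5 minus CO1 (6.01, adjusted p = 0.00481) and ND6 minus CO1 (6.10, adjusted p = 0.0371), where 4 ND5, 4 ND6 and 1 CO1 hearts had Myl7 above 10 CPM; with the atrial covariate edgeR gave 1.24 and 1.41 (adjusted p = 0.230 and 0.881). Leaving out single hearts edgeR gave 5.49 to 9.85 (called in 3 of 12) and 5.29 to 9.95 (0 of 12), the highest without CO1 mouse E42. With the compared groups alone in the fit, 0 of 14214 genes were called for ND5 minus CO1 without training and 2979 of 14358 for ND6 minus CO1 with it. With the atrial covariate 7 and 0 of 15723 were called. Of 30 training tests 0 were called by either tool and 0 had an unadjusted p under 0.05, against 287 to 793 such genes overall.

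**Figure D5:**
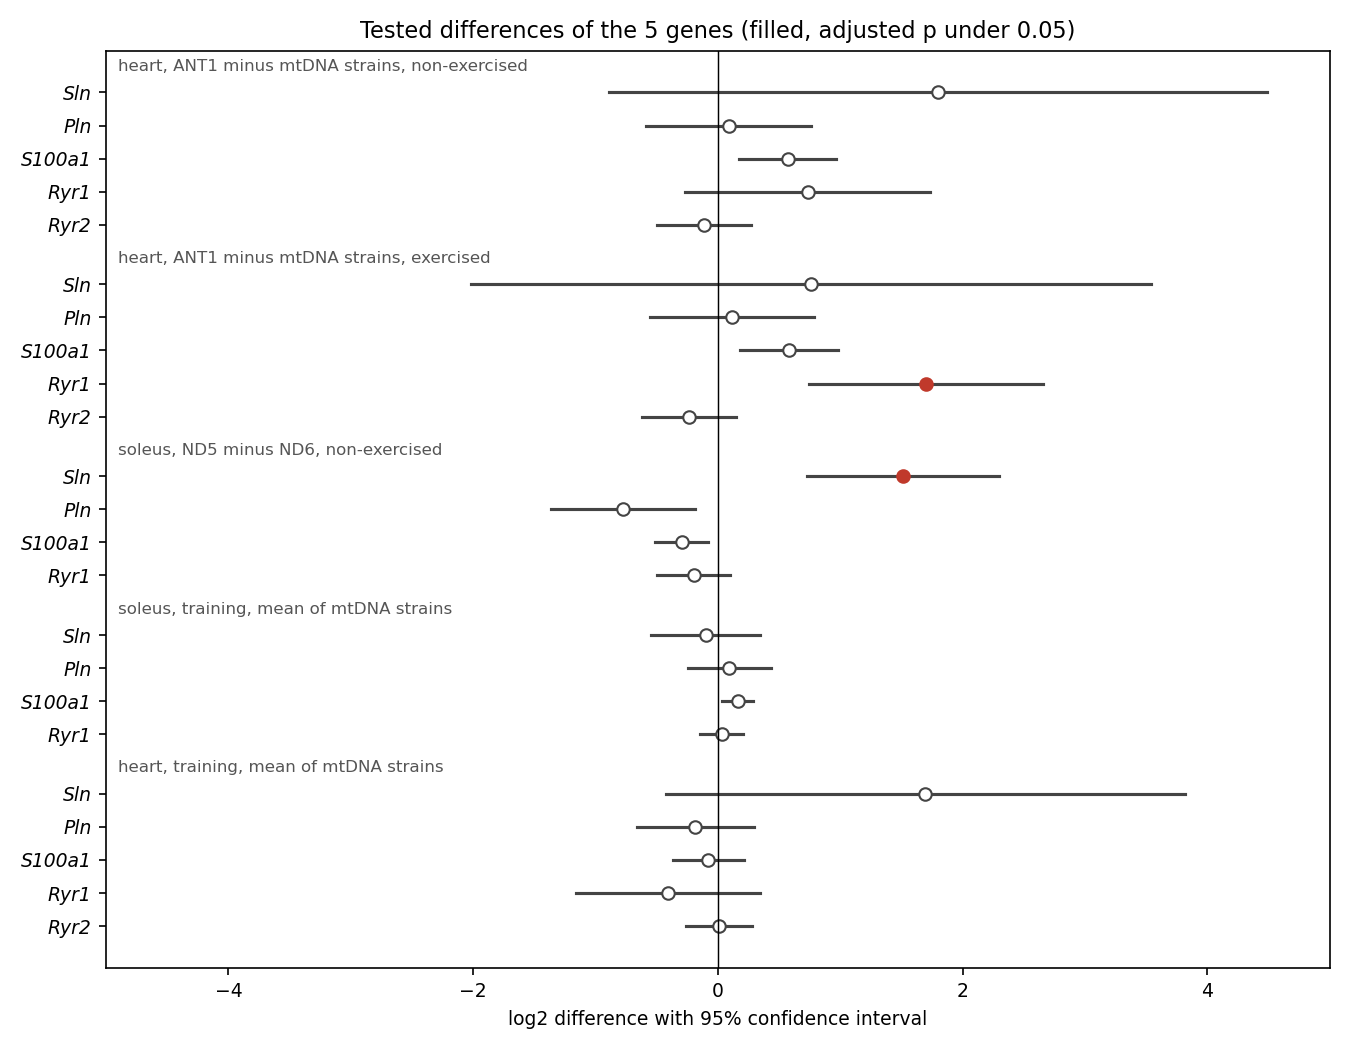
Tested log2 differences of the members with 95% intervals, for the comparisons named on the axis; filled points have an adjusted p under 0.05. Sln in ND5 minus ND6 soleus (1.51) and Ryr1 in exercised ANT1 heart (1.70) are filled.

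Between tissues Ryr1, Ryr2 and Pln differed most. In the mtDNA strains (36 libraries each) the mean level of Ryr1 was 2215 CPM ± 415 (SD) in soleus and 0.330 ± 0.194 in heart, and that of Ryr2 was 0.194 ± 0.116 and 1090 ± 264, on a scale common to both tissues. The log2 differences of soleus from heart were 12.72 ± 0.20 for Ryr1 (adjusted p = 4.25e-69) and -12.45 ± 0.16 for Ryr2 (adjusted p = 8.1e-77), where 84.9% of all genes were called. Pln was 15.7 CPM ± 7.33 in soleus and 3972 ± 1636 in heart (-7.98 ± 0.20, adjusted p = 2.66e-54). S100a1 was 153 CPM ± 23.7 and 282 ± 78.5 (-0.87 ± 0.08, adjusted p = 3.97e-17). Sln was 138 CPM ± 89.0 in soleus and 270 ± 364 in heart and did not differ beyond its spread (0.03 ± 0.51, adjusted p = 0.966). Fits with the mouse as a block gave a Sln difference of 3.42 (adjusted p = 0.0495, edgeR on the 15 mice with both tissues) or 2.82 (adjusted p = 0.00507, limma). These fits also changed the mice used or the method, so the part of the block in the shift cannot be told apart. Atp2a1 was higher in soleus by 12.30 ± 0.33 and Casq1 by 7.23 ± 0.16, and Atp2a2 and Casq2 were lower there (-0.72 ± 0.08 and -0.85 ± 0.09).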

How the data were processed

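RNA enriched with oligo(dT) was sequenced from paired-end libraries, per the labels' protocols. The tools named in the submitters' processing notes are RSEM 1.2.28 and STAR 2.5.2b, with mm10 as genome build; their settings and the strand mode are not given in the sources used here. Per tissue, the authors deposited a table of expected counts and one of FPKM. Columns were tied to samples by mouse code, and 24 columns of expected counts with names matching no sample were not used.

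Expected counts were rounded and filtered with filterByExpr, which left 13935 genes in soleus, 15723 in heart, 13843 for responders and 16172 over both tissues. Counts were scaled by TMM and tested with edgeR 4.0.16 (quasi-likelihood F test, R 4.3.3), a mean per group, with Benjamini-Hochberg adjustment over all genes and a threshold of 0.05. Counts of genes called are from edgeR unless DESeq2 1.42.0 or limma 3.58.1 is named. Levels are CPM scaled by TMM, and log2 CPM has a prior count of 2. FPKM values served for ratios within a library and as a second scale for S100a1 and Ryr1 in soleus. Correlations used 100000 permutations. The script was tested on simulated data. The number of counts limits the precision of low levels, and errors given cover the spread between libraries.

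The 5 members, the gene lists and the tests were chosen with earlier results of these data known. Named genes are the members, Atp2a1, Atp2a2, Casq1, Casq2, Ryr3, Mrln and S100a13, at most 3 per list and comparison by smallest p, and for each member the 3 genes with the highest r; genes named beyond this were chosen after their values were seen. Of the members 4 of 5 had an entry in the RefSeq promoter table. Among 120 pairs of libraries of a group in each tissue 0 were identical (smallest chi-square per gene 7.14 and 6.77). By code, 19 mice occur in both tissues, and for B80 the labels give different arms. Deviations of their soleus and heart libraries had a median r of 0.114 (-0.371 to 0.446), over 0.1 in 11 of 19. The pairing rests on the mouse code alone. Alternatives were DESeq2, RLE scaling, no filter, mtDNA genes left out, fewer groups, marker covariates, blocks and leaving out single libraries. The result of 1 marker list is not reported here.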

Additional observations from a re-analysis of the deposited data

Results flagged for a closer look

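Of 72 groups of 6 libraries examined, 10 held a library whose gap to its nearest neighbour exceeded Dixon's critical value, where chance would flag about 3.6 (1 in 20 groups). All 10 were in heart, given here as log2 CPM. Sln was low in ND6 exercised mouse I63 (5.72) and high in CO1 exercised mouse E50 (8.38) and CO1 non-exercised mouse E42 (4.71). Pln was low in ANT1 exercised mouse A17 (10.81) and S100a1 was low in CO1 exercised mouse E50 (7.87). Ryr2 was high in ANT1 exercised mouse A71 (10.28) and low in ND6 mouse I63 (9.44), ND5 mouse B11 (9.60) and CO1 mouse E74 (9.91), all exercised, and in ND5 non-exercised mouse B80 (7.28).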

How the results depend on the processing

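For 136 results 3405 alternative values were computed, 2604 of them with a library left out. The difference of ANT1 from the mtDNA strains in soleus was not among these results, so none of the alternatives was run for it. No called value changed sign, 166 values that were called in neither setting did, 4 lost their call and 27 gained one. Leaving out single libraries gave 1.25 to 1.76 for Sln in ND5 minus ND6 soleus without training (called in 11 of 12, adjusted p 0.0022 to 0.0616), 1.21 to 1.95 for Ryr1 in exercised ANT1 heart (22 of 24, adjusted p 0.00806 to 0.238) and 0.45 to 0.70 for S100a1 there (3 of 24, adjusted p 0.0295 to 0.320, called without A17, A71 or B9). Without the filter Ryr1 there was 1.68 (adjusted p = 0.0652). With the atrial covariate S100a1 was called at 0.67 (non-exercised) and 0.53 (exercised). With both arms together, added after seeing the data, S100a1 was called at 0.58 and Ryr1 at 1.22 (adjusted p = 0.0144). The cause of these changes was not tested. In the fits with a replicate block over mice, Sln in soleus against heart was called at 3.42 (edgeR, 15 mice) and 2.82 (limma). These fits, which also changed the mice or the method, changed no other member's call. Leaving out single libraries was not run for the soleus against heart comparison. Depth limits Ryr2 in soleus (at most 8 counts) and Ryr1 in heart (at most 44).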
